A study of Mus musculus with 6 samples.

Results

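The 69 genes described here encode the ligands and receptors of the classical axon guidance pathways. They were taken by name from the 23594 genes measured and comprise 20 semaphorins, 11 plexins and neuropilins, 14 Eph receptors, 8 ephrins, 7 Slits and Robos and 9 netrins, Unc5 receptors and Dcc. Their expression was compared between control and Lhx6-/- mouse molars. RNA came from tissue cut out by laser capture at PN4.5 (4.5 days of age) from the apical side of the furcation development region, the part of the mandibular first molar where the roots divide. The labels give the strain of every library as C57BL/6. The control mice were labelled wild type, and the Lhx6-/- mice were their littermates, homozygous for an Lhx6-CreER knock-in allele that removes Lhx6 function. The allele is constitutive, so Lhx6 was missing wherever it is normally expressed and not only in the tooth. Each group had 3 libraries, each pooled from 8 molars, and mice of both sexes were collected for the study, so the libraries are pools and not single animals.

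Guidance cues were first known for steering growing axons, and the same molecules guide blood vessels, set tissue boundaries and regulate cell adhesion and migration in organs such as the tooth. Semaphorins are secreted or membrane-bound ligands that signal through plexins, with neuropilins as co-receptors for most secreted class 3 members. Ephrins are membrane-bound ligands for Eph receptor tyrosine kinases, so this signal passes between touching cells and can run in either direction. Slits bind Robo receptors, and netrins bind Dcc and the Unc5 receptors. In developing teeth, semaphorins, netrins, Slits and ephrins are known to be expressed around ingrowing nerves and vessels.

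Lhx6 itself was measured at 27.8, 18.2 and 21.9 CPM (read counts scaled to a common library size after TMM normalization) in control libraries 1 to 3 and at 12.8, 9.82 and 10.5 CPM in Lhx6-/- libraries 1 to 3. Its log2 fold change was -1.04 ± 0.157 (SE, edgeR's quasi-likelihood test, Benjamini-Hochberg adjusted p = 0.021), so the groups followed their labels although transcript remained. The libraries held 60132323 to 76157433 estimated counts. The tissue carried the markers of its parts, and no marker of any list was at 0 in every library: all 13 dental mesenchyme markers and all 14 dental epithelium markers were tested. Of the mesenchyme markers, 1 rose (Dlx1) and none fell, and of the epithelial markers 5 fell, among them the basal keratins Krt14 and Krt5, and none rose, by the rule given next. The enamel genes Amelx, Ambn and Enam overlapped between groups. The summed epithelial markers, mostly Amelx and Ambn, overlapped too, at 136043 to 145950 CPM in controls and 115333 to 146699 CPM in Lhx6-/-. In such tissue a lower level may mean fewer cells of a type or less RNA per cell, which cannot be told apart.

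Of the 69 guidance genes, 68 passed the filter on low counts and were tested. By the rule that the study's methods set, a difference of 1.5-fold or more together with an unadjusted p below 0.05, 4 of the 68 rose in Lhx6-/- tissue and none fell. They were Epha3, Sema3g, Efnb3 and Plxnb3, from 4 different families. The rule was met by 3.28% of all 20114 genes tested, and by 1.58% in the higher direction. After adjustment over all genes, 3 of the 68 had a p under 0.05 (Epha3, Sema3g and Efnb3), against a background of 0.403% of all genes and 0.323% in the higher direction. With no fold threshold, 10 of the 68 had an unadjusted p under 0.05, all of them higher in Lhx6-/-, against 9.81% of all genes in either direction. The changes were modest: no guidance gene reached a 2-fold difference, and the fitted log2 fold changes ran from -0.29 to 0.86.

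The windows before the transcription start of Sema3g and Epha3 are shown because these genes had the highest fitted fold changes of the 68. Each is the RefSeq sequence of the 250 bases before the annotated start (GRCm38.p6), written 5′ to 3′ on the gene's own strand. The RefSeq start of Sema3g lies inside the deposited gene, so the last 13 bases of its window fall within the deposited coordinates, and the Epha3 window ends where the deposited gene begins. Capitals mark matches on either strand to 4 short motifs: TAATTA, the core bound by many homeodomain proteins, TATAAN, the TATA-type motif, GGGCGG, the GC box, and CANNTG, the E-box.
Sema3g, chr14:31217623-31217872, plus strand: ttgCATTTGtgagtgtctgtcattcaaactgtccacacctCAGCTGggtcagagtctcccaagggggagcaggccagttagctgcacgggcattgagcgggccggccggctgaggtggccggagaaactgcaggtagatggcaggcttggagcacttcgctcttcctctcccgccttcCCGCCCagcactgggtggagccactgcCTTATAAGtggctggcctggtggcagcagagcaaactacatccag
Epha3, chr16:63864176-63864425, minus strand: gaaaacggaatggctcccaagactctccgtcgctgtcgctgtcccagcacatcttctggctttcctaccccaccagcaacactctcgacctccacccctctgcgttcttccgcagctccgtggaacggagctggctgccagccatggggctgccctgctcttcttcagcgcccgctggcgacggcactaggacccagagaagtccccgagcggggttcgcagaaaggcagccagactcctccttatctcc

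The Sema3g window held 2 E-box matches, 1 GC box match and a TATA-type stretch that matched on both strands, these matches overlapping each other. The Epha3 window held no match to any of the 4 motifs. Neither window held TAATTA, which was found in 4.84% of all 32851 windows of this length. The TATA-type motif was found in 22.7% of all windows, the GC box in 32.7% and the E-box in 66.2%. RefSeq windows were matched for 59 of the 69 guidance genes, with 75 windows in all, and of these 4.0% held TAATTA, 6.67% the TATA-type motif, 70.7% the GC box and 48.0% the E-box. Efnb3 and Ntn1 were not among the 59. Such matches describe letters and not binding.

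Epha3 and Efnb3 were the members of the ephrin system that rose. Epha3 (chromosome 16, 63543534 to 63864175, minus strand, mm10) encodes a receptor whose best known ligand is ephrin-A5. It was measured at 22.6, 20.7 and 15.7 CPM in control libraries 1 to 3 and at 37.4, 35.1 and 34.9 CPM in Lhx6-/- libraries 1 to 3. The groups were well separated, and the Lhx6-/- libraries lay within a narrow range. The mean rose from 19.7 ± 3.6 to 35.8 ± 1.41 CPM (SD, n = 3), a log2 fold change of 0.86 ± 0.12 (SE, edgeR adjusted p = 0.011). Per kb of exons, Epha3 supplied 13.0% ± 2.15 of the summed level of the 9 EphA receptors in controls and 21.0% ± 0.27 in Lhx6-/- (SD, n = 3). Without Lhx6-/- library 1 or 2 the edgeR adjusted p was 0.0709 and 0.0661, with log2 fold changes of 0.83 and 0.88. The Epha3 annotation overlaps the small predicted gene Gm22769.

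Efna5, which encodes ephrin-A5, was measured at 40.0, 44.5 and 45.7 CPM in controls and 41.2, 41.1 and 49.8 CPM in Lhx6-/-, so its groups overlapped. Its log2 fold change was 0.02 ± 0.09 (SE).

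Efnb3 (chromosome 11, 69554092 to 69560205, minus strand) encodes ephrin-B3, a transmembrane ligand of EphB receptors and EphA4. Its levels were 26.7, 21.1 and 19.4 CPM in control libraries 1 to 3 and 39.3, 35.9 and 31.9 CPM in Lhx6-/- libraries 1 to 3. Every Lhx6-/- library was above every control library. The mean went from 22.4 ± 3.79 to 35.7 ± 3.71 CPM (SD, n = 3), a log2 fold change of 0.67 ± 0.12 (SE, edgeR adjusted p = 0.0413). Its share of the summed B ephrin level per kb was 15.6% ± 1.52 in controls and 21.7% ± 2.04 in Lhx6-/- (SD, n = 3). The adjusted p of Efnb3 was 0.124 without control library 2, 0.237 without control library 3, 0.201 without Lhx6-/- library 1 and 0.19 without Lhx6-/- library 2. Without control library 3 its log2 fold change of 0.58 was just under the fold threshold. Upper-quartile scaling gave an adjusted p of 0.0512 and non-robust dispersion 0.0615.

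The other ephrins did not pass the test. All 8 ephrins had a fitted log2 fold change above 0, of 0.01 to 0.67, but for 7 of them the groups overlapped. Efnb1 and Efna1 had the highest ephrin levels per kb, at 30.7 and 21.2 CPM per kb over all libraries. Efnb1, the X-linked ephrin-B1 gene needed for craniofacial patterning, was measured at 111, 97.2 and 98.2 CPM in controls and 114, 104 and 110 CPM in Lhx6-/-. Efna1, the ephrin-A1 gene, was measured at 39.9, 38.2 and 34.5 CPM in controls and 38.3, 40.1 and 41.7 CPM in Lhx6-/-. In each case the Lhx6-/- values fell among or next to those of the controls.

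Among the Eph receptors, Ephb4 was the most abundant per kb (19.3 CPM per kb), followed by Epha2 (10.7 CPM per kb). Ephb4, the ephrin-B2 receptor of venous endothelium, was measured at 88.4, 81.7 and 82.1 CPM in controls and 102, 90.2 and 94.0 CPM in Lhx6-/-. These groups did not overlap, with a log2 fold change of 0.18 ± 0.07 (SE) and an edgeR adjusted p of 0.419. Efnb2, its ligand and an arterial marker, had 51.9, 63.8 and 51.3 CPM in controls and 54.6, 58.3 and 68.7 CPM in Lhx6-/-. Ephb4 exceeded Efnb2 per kb by 1.89- to 2.77-fold across the 6 libraries.

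Epha2, a receptor common in epithelia, was measured at 47.5, 50.3 and 49.3 CPM in controls and 53.2, 47.6 and 52.4 CPM in Lhx6-/-. Ephb2, a receptor for B ephrins, was measured at 30.5, 24.7 and 29.8 CPM in controls and 34.0, 33.2 and 33.1 CPM in Lhx6-/-, with a log2 fold change of 0.24 ± 0.09 (SE, edgeR adjusted p = 0.406). The Ephb2 libraries separated by group and those of Epha2 did not. Epha1, an epithelial receptor, went the other way, at 6.28, 7.71 and 6.63 CPM in controls and 5.4, 5.64 and 5.82 CPM in Lhx6-/-. Its log2 fold change was -0.29 ± 0.15 (SE, edgeR adjusted p = 0.586), and its annotation overlaps Zyx and 2010310C07Rik, so reads could be shared.

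Epha6 was the only guidance gene that the filter removed. It had 5, 0 and 4 estimated counts in controls and 15, 0 and 1 in Lhx6-/-, too few to compare. With it, 5 of the 69 genes were under 0.1 CPM per kb: Epha10, Epha5, Epha8 and Robo3 were the others, named after their values were seen.

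**Figure D1:**
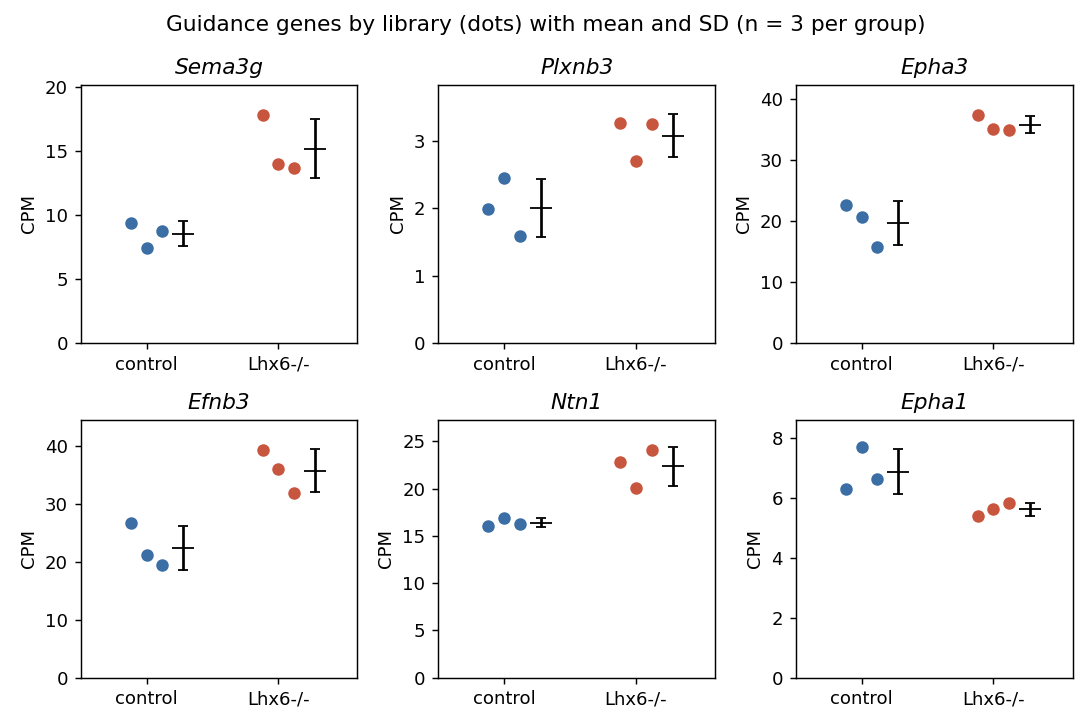
CPM (y axis, from 0) of 6 guidance genes in each library, with control libraries in blue, Lhx6-/- libraries in red, and the mean and SD of each group in black (n = 3). Epha3, Sema3g, Efnb3 and Plxnb3 met the fold and p rule, Ntn1 did not reach the fold threshold, and Epha1 lay lower in Lhx6-/-; in all 6 the groups do not overlap.

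Sema3g was the semaphorin that rose. It lies on chromosome 14 from 31217860 to 31230352 on the plus strand and encodes a secreted class 3 semaphorin that binds neuropilin-2 and is known from blood vessels. Its levels were 9.38, 7.45 and 8.71 CPM in control libraries 1 to 3 and 17.8, 14.0 and 13.7 CPM in Lhx6-/- libraries 1 to 3. The lowest Lhx6-/- library was above the highest control library. The mean rose from 8.51 ± 0.98 to 15.2 ± 2.28 CPM (SD, n = 3), a log2 fold change of 0.83 ± 0.14 (SE, edgeR adjusted p = 0.0249). Per kb of exons it made up 7.26% ± 0.889 of the class 3 semaphorin level in controls and 11.8% ± 1.73 in Lhx6-/- (SD, n = 3). The adjusted p of Sema3g was 0.0572 without control library 2, 0.132 without control library 3, 0.127 without Lhx6-/- library 1 and 0.0943 without Lhx6-/- library 2, while its log2 fold change stayed between 0.71 and 0.91 when any 1 library was left out.

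Summed markers of vessels were also higher in Lhx6-/- tissue. The 10 endothelial markers summed to 374 to 382 CPM in controls and to 419 to 490 CPM in Lhx6-/-, with 1 of the 10 meeting the rule (Cldn5, a tight junction gene of endothelium). Kdr, Emcn and Egfl7 overlapped between groups, and the other endothelial markers were higher in every Lhx6-/- library than in any control. The 7 pericyte markers summed to 453 to 506 CPM in controls and 605 to 723 CPM in Lhx6-/-, and 2 of the 7 rose (Rgs5 and Myh11). Of the pericyte markers, Cspg4 and Acta2 overlapped between groups. Lhx6-/- library 1 had the highest sum of both lists and the highest Sema3g, Efnb3 and Epha3. Among the controls, library 1 had the lowest endothelial sum (374 CPM) but the highest pericyte sum (506 CPM). It also had the highest Sema3g, Efnb3 and Epha3 of the controls. With the endothelial marker level as a covariate the log2 fold change of Sema3g was 0.31 (edgeR unadjusted p = 0.276), that of Efnb3 0.34 (unadjusted p = 0.218) and that of Epha3 0.80 (unadjusted p = 0.0171). That fit left 1 gene of all those tested with an adjusted p under 0.05, because the endothelial level itself separated the groups, so genotype and vessel content cannot be told apart there. With the epithelial marker level as a covariate the log2 fold changes were 0.56 for Sema3g, 0.49 for Efnb3 and 0.85 for Epha3, with edgeR adjusted p-values of 0.213, 0.26 and 0.102. With the Y-linked level as a covariate they were 1.16, 0.83 and 0.80, with adjusted p-values of 0.00998, 0.0564 and 0.0698. Whether more vascular RNA accounts for the rise of these genes was not tested further.

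The other 19 semaphorins did not pass the test. Sema7a, a membrane-anchored ligand of plexin-C1 and integrins, had the highest semaphorin level per kb (29.2 CPM per kb), followed by Sema5a (13.7 CPM per kb). Sema7a was measured at 101, 94.1 and 92.0 CPM in controls and 96.9, 98.6 and 94.5 CPM in Lhx6-/-, with a log2 fold change of 0.01 ± 0.07 (SE). Sema5a, a transmembrane semaphorin with thrombospondin repeats, was measured at 258, 245 and 236 CPM in controls and 252, 272 and 271 CPM in Lhx6-/-. The groups overlapped for both of these genes.

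Sema6c and Sema6d, transmembrane ligands of A-class plexins, had groups that did not overlap. Sema6c was measured at 21.3, 20.8 and 24.5 CPM in controls and 28.2, 25.8 and 24.8 CPM in Lhx6-/-, with an edgeR adjusted p of 0.415. Sema6d was measured at 98.3, 86.1 and 93.1 CPM in controls and 99.0, 109 and 107 CPM in Lhx6-/-, with an edgeR adjusted p of 0.423. The gap between groups was small for each, as the closest control and Lhx6-/- libraries nearly touched. Of the class 4 semaphorins none of 6 separated by group, and their median log2 fold change was -0.02.

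The semaphorin receptors were led by Plxnd1, at 40.3 CPM per kb, and Plxnb2, at 27.5 CPM per kb, with Nrp2 at 25.1 CPM per kb. Plxnd1, the plexin of endothelium and a receptor for Sema3e, was measured at 305, 245 and 271 CPM in controls and 340, 303 and 299 CPM in Lhx6-/-. Its groups overlapped, its log2 fold change was 0.20 ± 0.09 (SE, edgeR adjusted p = 0.51), and with the endothelial covariate it was -0.06. Plxnb2, a receptor for class 4 semaphorins, was measured at 222, 190 and 215 CPM in controls and 224, 218 and 204 CPM in Lhx6-/-, also overlapping.

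Nrp2, the neuropilin through which Sema3g signals, was measured at 285, 278 and 295 CPM in controls and 315, 313 and 296 CPM in Lhx6-/-. The groups did not overlap, although by a small margin, and the log2 fold change was 0.11 ± 0.07 (SE, edgeR adjusted p = 0.7). Per kb of exons Nrp2 exceeded Nrp1 by 8.62 ± 0.316-fold in controls and 8.73 ± 0.473-fold in Lhx6-/- (SD, n = 3), so this ratio differed by less than the spread between libraries.

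Plxnb3 was the plexin that met the rule. It lies on the X chromosome from 73757090 to 73772514 and encodes a receptor for Sema5a. It was measured at 1.99, 2.45 and 1.59 CPM in control libraries 1 to 3 and 3.27, 2.71 and 3.25 CPM in Lhx6-/- libraries 1 to 3. These low levels separated by a narrow gap, with control library 2 close to Lhx6-/- library 2. The log2 fold change was 0.61 ± 0.24 (SE, edgeR unadjusted p = 0.0252, adjusted p = 0.415). The unadjusted p was 0.0783 without control library 3, 0.0665 without Lhx6-/- library 1 and 0.07 without Lhx6-/- library 3. The 4 Y-linked markers, which read the share of male tissue in a pool, summed to 14.6 to 58.0 CPM in controls and 55.1 to 92.1 CPM in Lhx6-/-. The sum of 58.0 CPM was in control library 2, and control libraries 1 and 3 had 17.4 and 14.6 CPM. Of the 4 markers, Kdm5d met the rule, and Kdm5d and Uty were higher in every Lhx6-/- library than in any control. With the Y-linked level as a covariate the log2 fold change of Plxnb3 was 0.32 (edgeR unadjusted p = 0.41).

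Of the remaining plexins, Plxna1 and Plxnc1 lay higher in Lhx6-/- without overlap and Plxnb1 lay lower. Plxna1, a co-receptor of neuropilins, was measured at 130, 131 and 130 CPM in controls and 140, 139 and 137 CPM in Lhx6-/-. Plxnc1, the receptor of Sema7a, was measured at 5.04, 5.69 and 5.0 CPM in controls and 6.2, 5.81 and 6.52 CPM in Lhx6-/-. Plxnb1, a receptor for Sema4d, was measured at 92.9, 89.5 and 88.3 CPM in controls and 82.2, 84.6 and 81.1 CPM in Lhx6-/-. The spread within groups was small for Plxna1 and Plxnb1, but none of these passed the test, with edgeR adjusted p-values of 0.713, 0.692 and 0.57. Plxnb1 and Epha1 were the only tested guidance genes whose Lhx6-/- libraries were all below the controls. Both are known from epithelia, and the median log2 fold change of the epithelial markers was -0.38, with 13 of the 14 below 0. Epha2, also a receptor common in epithelia, had a log2 fold change of 0.06 and overlapping groups. With the epithelial marker level as a covariate the log2 fold change of Plxnb1 was -0.15 (edgeR unadjusted p = 0.0678, against -0.13 without it). For Epha1 it was -0.10 (edgeR unadjusted p = 0.598, against -0.29). Whether less epithelial RNA accounts for the lower Plxnb1 and Epha1 was not tested further.

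**Figure D2:**
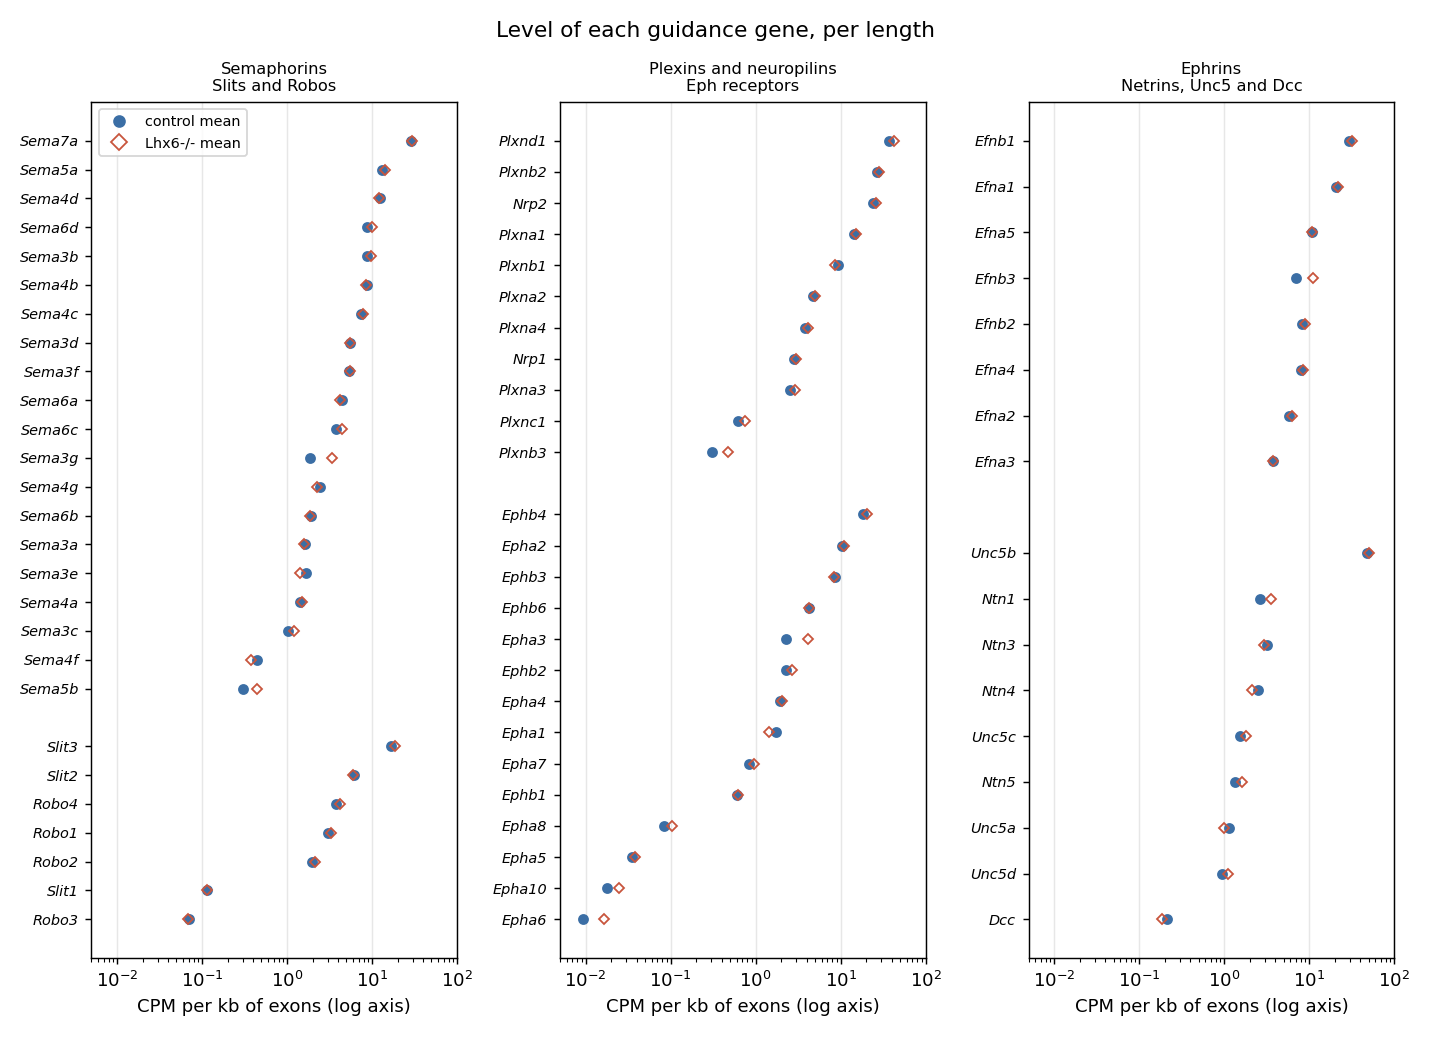
Level of each of the 69 guidance genes in CPM per kb of exons (x axis, logarithmic), by family and ordered by level, with the control mean as a filled blue dot and the Lhx6-/- mean as an open red diamond. Unc5b is the most abundant at 49.4 CPM per kb and Epha6 the least, and for most genes the pair of marks coincides.

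Among the netrins and their receptors, Unc5b stood out by its level. Unc5b, a netrin receptor also known from endothelium, was measured at 321, 281 and 296 CPM in controls and 321, 305 and 332 CPM in Lhx6-/-, which overlapped. Per kb of exons it was the most abundant of all 69 guidance genes, at 49.4 ± 3.02 CPM per kb (SD over 6 libraries), and it made up 92.6% ± 0.313 of the summed level of the Unc5 genes and Dcc in controls and 92.6% ± 0.465 in Lhx6-/- (SD, n = 3). Unc5c, a related receptor, was measured at 30.4, 30.3 and 26.9 CPM in controls and 33.9, 34.1 and 34.2 CPM in Lhx6-/-. Its groups did not overlap, with a log2 fold change of 0.22 ± 0.08 (SE, edgeR adjusted p = 0.36). Dcc, the attractive netrin receptor of neurons, was at 0.199 CPM per kb.

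Ntn1 (chromosome 11, 68209364 to 68400823, minus strand) encodes netrin-1, the secreted ligand of Dcc and the Unc5 receptors. It was measured at 16.0, 16.9 and 16.2 CPM in control libraries 1 to 3 and 22.8, 20.1 and 24.1 CPM in Lhx6-/- libraries 1 to 3. The control libraries lay close together and all Lhx6-/- libraries were above them. The mean went from 16.4 ± 0.475 to 22.3 ± 2.01 CPM (SD, n = 3), a 1.36-fold difference, under the fold threshold. The log2 fold change was 0.45 ± 0.10 (SE, edgeR unadjusted p = 0.00054, adjusted p = 0.0936), and DESeq2 gave an adjusted p of 0.00856. Over all 19 alternative fits its log2 fold change lay between 0.39 and 0.52 and its adjusted p between 0.00856 and 0.999. Per kb, Ntn1 made up 27.1% ± 0.405 of the level of the 4 netrins in controls and 34.7% ± 2.26 in Lhx6-/- (SD, n = 3).

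The Slits and Robos showed no member that met the rule, and their fitted log2 fold changes ran from -0.04 to 0.15. Slit3 (17.6 CPM per kb) and Slit2 (6.02 CPM per kb) were the most abundant Slits per kb. Slit2 had the higher CPM, but its summed exons are 25433 bases long against 6067 for Slit3. Slit3 was measured at 108, 92.6 and 105 CPM in controls and 118, 112 and 106 CPM in Lhx6-/-, and Slit2 at 158, 137 and 168 CPM in controls and 148, 163 and 144 CPM in Lhx6-/-. Both overlapped between groups. Robo2, a Slit receptor of neurons and mesenchyme, was measured at 34.5, 33.4 and 31.1 CPM in controls and 35.1, 35.8 and 38.0 CPM in Lhx6-/-, without overlap but with an edgeR adjusted p of 0.63. Robo4, the endothelial Robo, had 23.8, 18.3 and 18.5 CPM in controls and 23.2, 23.9 and 19.9 CPM in Lhx6-/-.

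**Figure D3:**
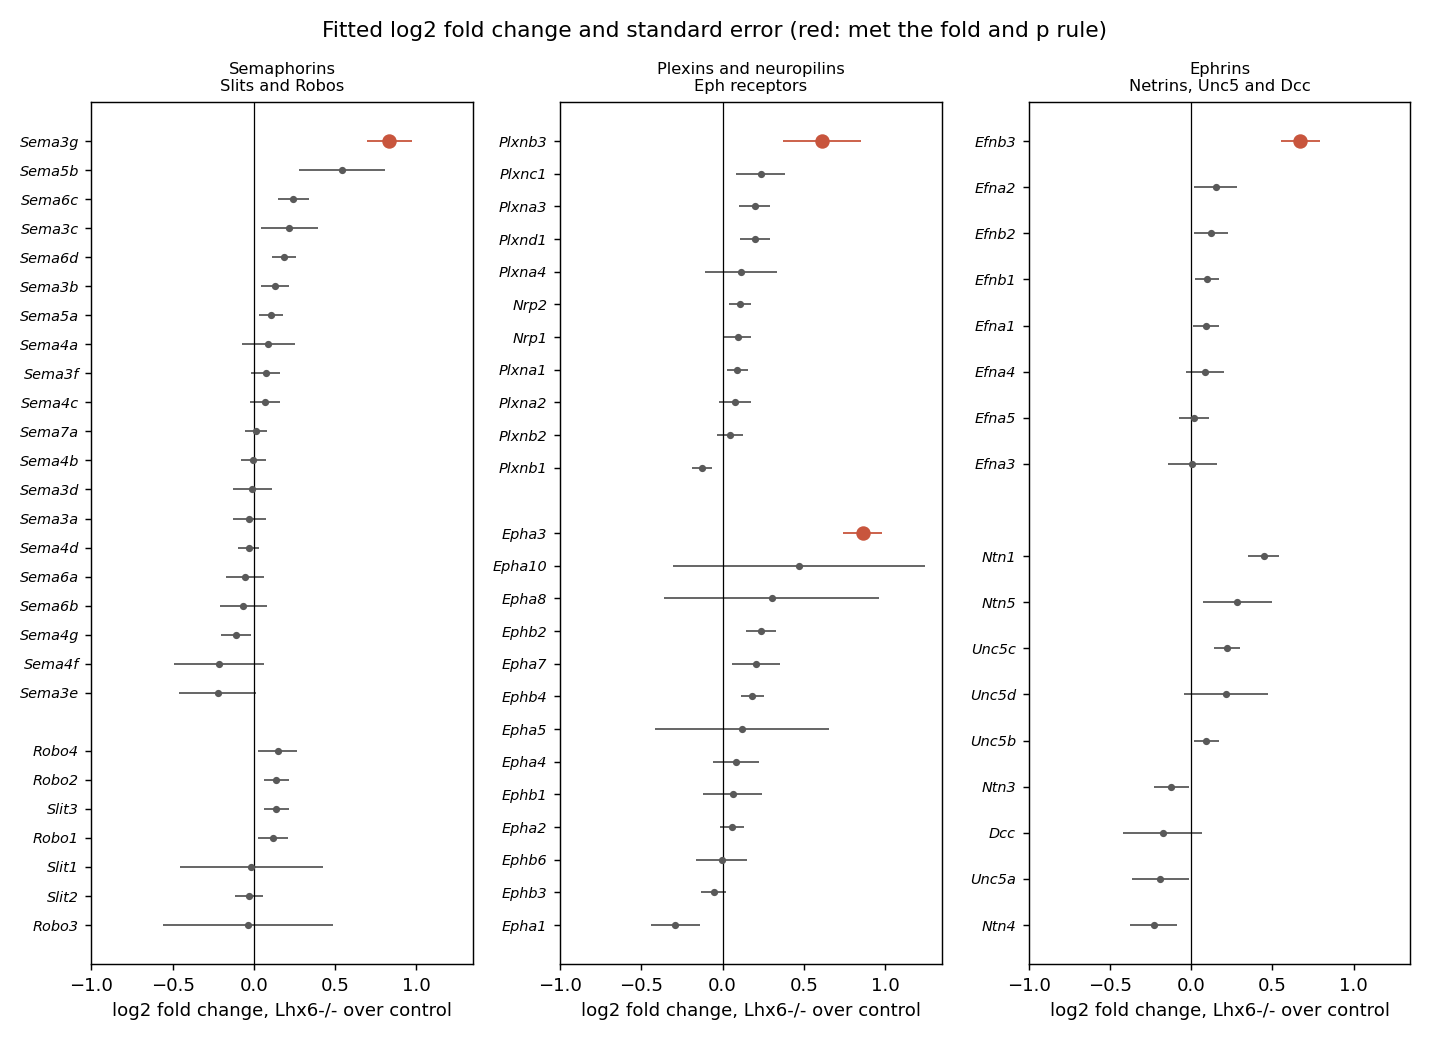
Fitted log2 fold change of Lhx6-/- over control (x axis) for the 68 tested guidance genes, by family and ordered by value, with bars of 1 standard error. The 4 genes past both thresholds are red, and 48 of the 68 values lie above 0.

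Taken by rank of level per kb over all libraries, the guidance genes began with Unc5b (49.4 ± 3.02 CPM per kb, SD over 6 libraries) and Plxnd1 (40.3 ± 4.42). Efnb1 (30.7 ± 2.06), Sema7a (29.2 ± 1.01), Plxnb2 (27.5 ± 1.68) and Nrp2 (25.1 ± 1.26) followed, and among these 4 the SD ranges of neighbours in that order overlapped, while those of Unc5b, Plxnd1 and Efnb1 did not. Of the 69 genes, 14 were at 10 CPM per kb or more and 56 at 1 CPM per kb or more. None of the 4 genes that met the rule was among the 10 most abundant per kb: Efnb3 ranked 17, Epha3 35, Sema3g 41 and Plxnb3 61.

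As a group the guidance genes lay slightly above 0. The median log2 fold change of the 68 tested genes was 0.09, against -0.002 over all 20114 genes. Of the 68, 48 were above 0 (70.6%), against 49.7% of all genes, and 49.1% of the 9480 genes with a mean of at least 10 CPM. The median was 0.07 for the 35 ligands and 0.12 for the 33 tested receptors. By library, the median log2 deviation of the 68 genes from their control means was 0.0467, -0.0243 and -0.0322 in control libraries 1 to 3. In Lhx6-/- libraries 1 to 3 it was 0.1418, 0.0781 and 0.0664, with a pooled SD of 0.042 between libraries. Control library 1 thus lay close to Lhx6-/- libraries 2 and 3, and the shift of the group was not tested. In 14 of the 68 genes every Lhx6-/- library was above every control library, and in 2 every Lhx6-/- library was below, against a background of 7.86% and 7.68% of all genes. In 9 of these 14 genes the means differed by less than 1.2-fold. The median log2 fold change of the guidance genes was 0.0383 with the epithelial marker level as a covariate. With the endothelial marker level it was -0.0079, so it did not stay above 0 there. The 13 dental mesenchyme markers also lay above 0, with a median of 0.18 and 11 of 13 above 0. Their sums overlapped at 91867 to 116881 CPM in controls and 106378 to 114515 CPM in Lhx6-/-. These sums were mostly Col1a1 and Col1a2, with control means of 75994 and 27851 CPM. Pax9, Dlx1, Prrx1, Prrx2, Twist1, Vim and Lhx8 were higher in every Lhx6-/- library than in any control. Msx2 was lower in every Lhx6-/- library, and the other markers overlapped. The part of the mesenchyme markers in the shift of the guidance genes was not tested.

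**Figure D4:**
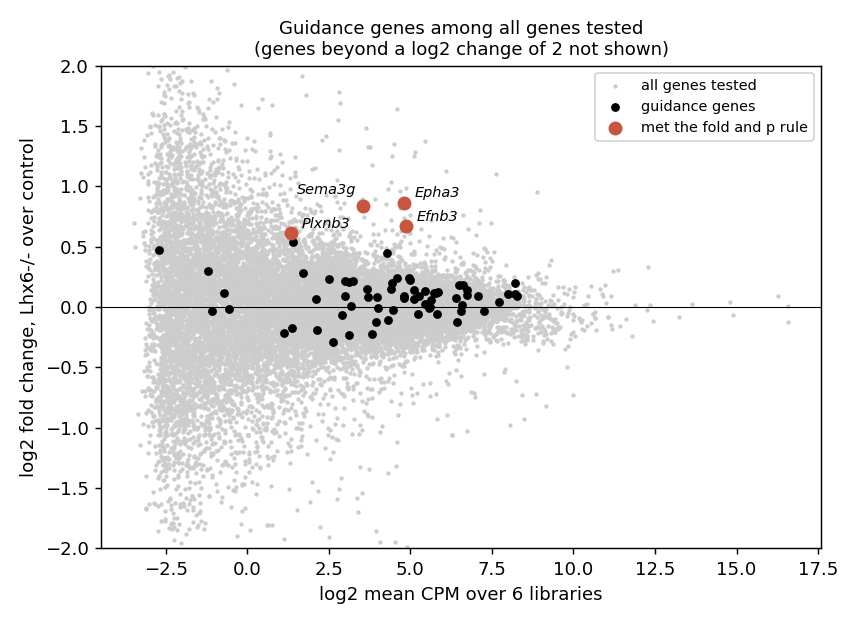
Log2 fold change of Lhx6-/- over control (y axis) against log2 mean CPM over 6 libraries (x axis) for all genes tested in grey, the guidance genes in black and the 4 that met the rule in red. Most guidance genes lie in a narrow band near 0, with a median of 0.09, and the red genes lie above it.

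Other genes of the guidance pathways were read from a list of 76 co-receptors, intracellular effectors and related cues, of which 75 were tested. Of these 1 met the rule, against the background of 3.28% of all genes, and it was higher in Lhx6-/-. It was Flrt1, which encodes a transmembrane protein of the family that binds Unc5 receptors and latrophilins. Flrt1 was measured at 3.36, 1.9 and 2.71 CPM in controls and 6.19, 6.79 and 4.69 CPM in Lhx6-/-. The log2 fold change was 1.15 ± 0.235 (SE, edgeR adjusted p = 0.0763), with no overlap between groups. It did not meet the rule with the endothelial marker level as a covariate. The median log2 fold change of the list was 0.04, with 47 genes above 0 and 28 below.

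Nerve tissue, in which many of these genes are known, varied between libraries more than between groups. The 14 nerve and glia markers summed to 209 to 565 CPM in controls and 231 to 544 CPM in Lhx6-/-, and 3 of the 14 met the rule (Foxd3 higher, Nefm and Snap25 lower). With the level of these markers as a covariate the same 4 guidance genes met the rule and the same 3 had an adjusted p under 0.05. The 5 erythroid markers summed to 2960 to 3689 CPM in controls and 1590 to 2322 CPM in Lhx6-/-, and 3 of the 5 fell. The 5 odontoblast markers summed to 7026 to 7558 CPM in controls and 8223 to 9320 CPM in Lhx6-/-, and the 5 osteoblast markers to 4431 to 4684 CPM in controls and 3722 to 4423 CPM in Lhx6-/-. The osteoblast sums nearly touched, at 4431 CPM in the lowest control and 4423 CPM in the highest Lhx6-/- library. Of the osteoblast markers, Bglap and Bglap2 were lower in every Lhx6-/- library, and Sp7, Alpl and Sost overlapped. Neither the odontoblast nor the osteoblast sums overlapped between groups, although no single gene of these lists met the rule. No gene of the 6 periodontal ligament or follicle, 8 leukocyte and 5 muscle markers met it either, and their sums overlapped.

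**Figure D5:**
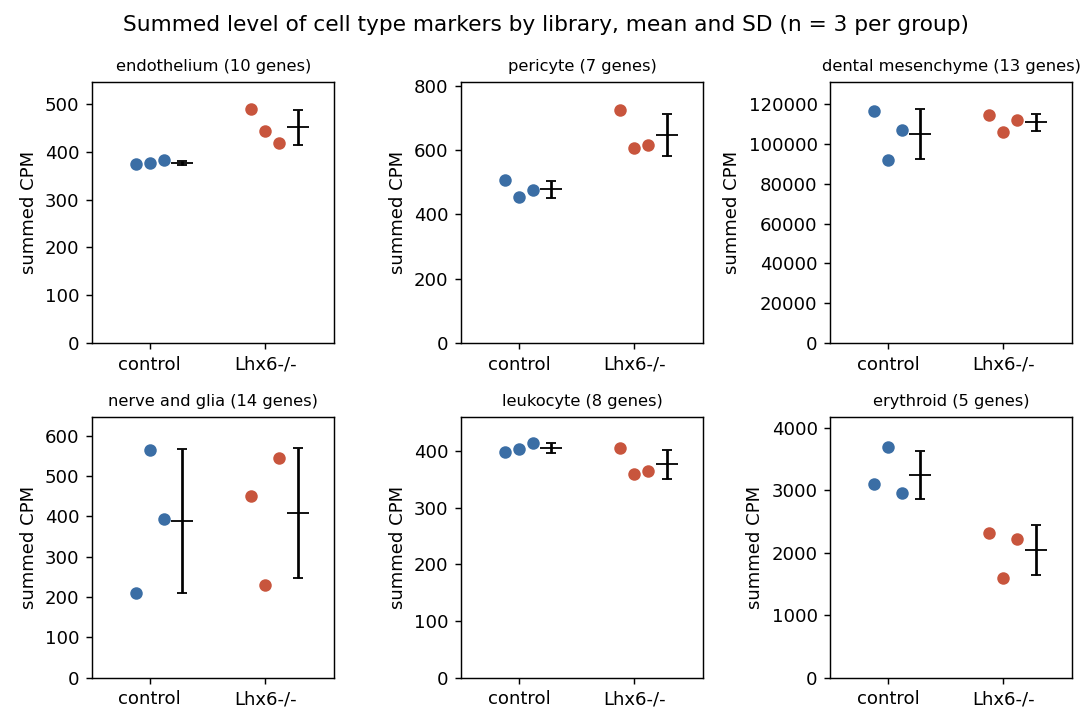
Summed CPM (y axis, from 0) of 6 marker lists in each control (blue) and Lhx6-/- (red) library, with mean and SD in black (n = 3). The endothelial and pericyte sums are higher and the erythroid sums lower in Lhx6-/- without overlap, while the nerve and glia sums range widely in both groups.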

How the data were processed

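Total RNA from laser-captured tissue was sequenced single-end in 3 control and 3 Lhx6-/- libraries. The authors aligned trimmed reads to mm10 (GRCm38) with STAR 2.6.1d and used Partek, per the labels, and deposited estimated counts of 23594 genes per library, not normalized. The counter, its strand setting and the annotation are not given in the sources used here. The count table names no genes, so its order was checked against the total counts per gene in the authors' comparison table. A weighted sum of the libraries, with weights fitted to those totals, matched them with a largest relative deviation of 1.14e-07. The ratios, fold changes and p-values of the comparison table were not used. Libraries were grouped by genotype in the labels, with the numbers of the sample titles. Nothing in the labels says that libraries came from separate litters, so p-values measure the spread between these pools.

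Counts were rounded and tested on all genes with edgeR 4.0.16 (R 4.3.3) by the quasi-likelihood test, two-sided, with TMM scaling, a minimum of 10 in the expression filter and genotype as the only term. The biological coefficient of variation was 0.202. P-values were adjusted over all 20114 genes tested. A standard error is the log2 fold change over the square root of F. In simulated counts, the same steps were tested before use. By the totals of 60132323 to 76157433 alone, counting error would be small for all but the genes under about 1 CPM. Molars were pooled to obtain enough RNA, and the share of duplicate reads was not measured, so the totals may overstate the molecules sampled. The spread between 3 libraries limits the rest. CPM per kb used union exon lengths of GENCODE vM21, in which all 69 genes had the deposited start and end. A union takes in every annotated exon of a gene, so ranks and shares per kb depend on that annotation. Of the 69, 42 overlap another annotated gene, and reads there could be shared.

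Genes named are those that met the rule, those whose groups do not overlap, the 2 most abundant per kb of each family, the gene the filter removed, and their partners. The members, marker lists and naming rule were chosen with earlier results of these data known. Alternatives were other scalings, filters and dispersions, DESeq2 1.42.0, limma 3.58.1 (trend and voom), a replicate block, marker covariates and leaving out each library.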

Additional observations from a re-analysis of the deposited data

How the results depend on the processing

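The 4 guidance genes past the fold and p thresholds and the 3 with an adjusted p under 0.05 were counted again under 19 other fits. Other scalings, filters, dispersion, DESeq2 and limma gave 4 genes by the rule and 2 to 4 by adjusted p. The fold threshold of 2 left 0 genes and no fold threshold gave 10. With the epithelial covariate 2 genes met the rule and 0 had an adjusted p under 0.05, and with the endothelial covariate 3 (Epha3, Ephb6 and Sema3e) and 0. With the Y-linked covariate 4 met the rule (Efnb3, Epha3, Sema3g and Unc5d) and 2 had an adjusted p under 0.05 (Sema3g and Unc5d). Leaving out 1 library gave 2 to 5 genes by the rule and 0 to 3 by adjusted p. Control replicate 3 gave the lowest count by the rule (Epha3 and Sema3g), and by adjusted p either Lhx6-/- replicate 1 or 2 gave 0 and control replicate 2 or 3 gave 1 (Epha3). The cause was not tested. The median log2 fold change, 0.0925, was 0.0383 with the epithelial, -0.0079 with the endothelial and 0.17 with the Y-linked covariate. Of the other pathway genes, 3 met the rule with the endothelial (Cntn1, Crmp1 and Fes, not Flrt1) and 3 with the Y-linked covariate (Flrt1, Flrt3 and Rtn4r), and leaving out 1 library gave 1 to 2.

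The methods speak of 3 pairs of samples, and the labels do not say which libraries form a pair. No shared deviation by replicate number was seen: deviations of libraries with the same number in the sample titles correlated at 0.026, -0.029 and -0.031. With 3 pools per group, such values cannot show whether the libraries were collected in pairs. The deposited table numbers the Lhx6-/- libraries 2 to 4, by which control 2 and 3 would match title numbers 1 and 2, at -0.062 and -0.0065. No control and Lhx6-/- library correlated above 0.095. With the replicate block 4 guidance genes met the rule and 3 had an adjusted p under 0.05.

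Of 494 single-gene values under the alternatives, 16 in 9 genes changed sign, none of them in a gene with an adjusted p under 0.05. With the endothelial covariate these were Sema6c (-0.0251), Nrp2 (-0.0064), Sema7a (-0.0094), Plxnd1 (-0.0602), Plxnb2 (-0.14), Epha2 (-0.0019), Efnb1 (-0.0021) and Slit3 (-0.08). With the epithelial covariate they were Sema7a (-0.0277), Plxnb2 (-0.11) and Slit3 (-0.0188), and with the Y-linked covariate Slit2 (0.16). Leaving out 1 library gave -0.0131 to 0.0585 for Sema7a, -0.0185 to 0.0936 for Plxnb2 and -0.11 to 0.0376 for Slit2. Depth limits Epha6 and the genes under 0.1 CPM per kb.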

Other observations

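Some guidance genes had a spread within at least 1 group that was larger than the difference between the group means. Plxna4, a plexin of neurons, was measured at 54.3, 67.9 and 38.4 CPM in controls and 51.7, 53.9 and 68.5 CPM in Lhx6-/-. Sema3e, a ligand of plexin-D1, was measured at 15.1, 13.6 and 17.2 CPM in controls and 9.03, 11.9 and 18.3 CPM in Lhx6-/-. Unc5d was measured at 11.3, 5.3 and 9.69 CPM in controls and 11.7, 10.5 and 8.3 CPM in Lhx6-/-. With the Y-linked level as a covariate Unc5d met the fold and p rule and had an edgeR adjusted p under 0.05, and with the endothelial level Sema3e met the rule. The means of Sema5b differed by more than the SD of either group, but the gene did not meet the rule. This semaphorin, with a log2 fold change of 0.54 ± 0.26 (SE, edgeR unadjusted p = 0.0632), was measured at 2.86, 2.04 and 1.52 CPM in controls and 3.62, 2.99 and 2.74 CPM in Lhx6-/-, with 1 control library above the lowest Lhx6-/- library. These 4 genes were chosen after their values were seen.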
